A study of Mus musculus with 64 samples.

Results

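The 45 genes described here drive or mark the cell cycle: cyclins and kinases, the machinery that copies DNA, the enzymes that supply its building blocks, the spindle and chromosome proteins of mitosis, the transcription factors that switch these genes on, and 2 inhibitors. They were chosen by name from the 45708 genes of a count table. The RNA came from microglia, the macrophages that reside in brain tissue, isolated from mouse brains by sorting cells positive for CD11b and CD45. The table holds 64 libraries in 12 groups, and RISP, the Rieske iron-sulfur protein encoded by Uqcrfs1, is a subunit of respiratory complex III. Adult naive libraries came from RISP KO (n = 13), RISP Het (n = 13) and RISP WT (n = 5) animals. PLX3397 depletion libraries came from KO (n = 2), Het (n = 2) and WT (n = 4), PLX3397 repopulation libraries from KO, Het and WT (n = 4 each), cuprizone libraries from KO (n = 6) and Het (n = 4), and naive libraries of the age group called old from Het (n = 3).

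PLX3397 inhibits CSF1R, the receptor whose signal microglia need to survive, and microglia that outlast the drug divide when it is withdrawn. Cuprizone is a toxin that strips myelin. The labels give no dose, day or sex, and they do not say whether replicates were separate animals, so p-values measure the spread between these libraries, which may be technical. A transcript named CreERT2, the tamoxifen-inducible recombinase, was counted in every group, WT included (876.7 to 989.4 counts per 1000000 of the library's counts, CPM, in naive WT), so the control genotypes carried it too, and the sources used here do not name the promoter that drives it. Uqcrfs1 itself ran from 6.37 to 10.7 CPM in KO repopulation libraries, 29.2 to 34.5 in Het and 47.6 to 63.7 in WT.

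Division follows a fixed order. D-type cyclins with their kinases release E2F factors, which turn on genes for DNA replication, and later MYB-containing complexes and FOXM1 turn on the genes of mitosis through promoter elements called CHR (cell cycle genes homology region). Inhibitors such as p21, encoded by Cdkn1a, stop the cyclin-dependent kinases. Microglia in a healthy adult brain divide rarely. In RNA from bulk sorted cells, fewer cells of a type and less RNA per cell cannot be told apart.

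Libraries differed in ways the groups do not explain. In 34 libraries, here called ncRNA-poor, the noncoding transcripts Gm26917 and Yam1 took 0.0688 to 0.276% of counts, and in the other 30 they took over 1%. The second set was divided by total counts into deep (15.9 to 24 M, with M for 1000000 counts, n = 7), middle (6.38 to 11.7 M, n = 13) and shallow libraries (2.70 to 5.10 M, n = 10, all cuprizone). All WT, depletion and repopulation libraries were ncRNA-poor, and groups were compared inside a set. Microglial markers such as P2ry12 and Tmem119 summed to 36098 to 55425 CPM in ncRNA-poor and 12847 to 32437 CPM in the other libraries. Some markers of other cells were higher in ncRNA-poor libraries too, but not all: the neuron marker median was 2.87 CPM there and 5.34 in the others. Erythroid markers summed to 1554 to 19434 CPM there and 0.825 to 287 in the others, and oligodendrocyte markers had medians of 946 and 108 CPM. The series text assigns untreated KO and WT libraries to NextSeq 500 and all others to NextSeq2000, so for KO and WT the treatment and the instrument cannot be told apart in a comparison with naive libraries. It also puts naive KO and naive Het libraries on different instruments, so genotype and instrument cannot be told apart there. The sets read from the counts do not follow this assignment, since KO and Het naive libraries occur in the ncRNA-poor, middle and deep sets, and no instrument is given per library. Within depletion, repopulation or cuprizone this assignment gives all genotypes the same instrument. Sex, read from 4 Y-linked genes, was male in 41 and female in 23 libraries. In ncRNA-poor naive libraries 4 of 5 KO, 1 of 4 Het and 5 of 5 WT were male. Of the WT libraries 2 of 4 were male at depletion and 2 of 4 at repopulation, so sex differed between compared groups. Old Het replicate 3 was called male at 28.6 CPM of these genes, but its Xist was 497 CPM against 0.125 and 1.24 in old replicates 1 and 2.

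The promoters were searched for the letters of elements that the 2 waves of transcription are known to use. Of 32851 RefSeq promoters of mouse genes (GRCm38.p6, from 250 bases before to 50 after the start), 17.9% held a CHR core (TTTGAA), 37.4% a CCAAT box (CCAAT) and 8.07% an E2F core, each searched on its own on both strands. The E2F core was searched in the form TTCCCGC, in the form TTGGCGC and in the form TTCGCGC. Among 18 promoters of members that act in mitosis, 13 held TTTGAA, 16 CCAAT and 4 an E2F core. Among 14 promoters of members that act in replication, 2 held TTTGAA, 10 CCAAT and 8 an E2F core. These are matches of letters, and 37 of the 45 members had a promoter in the table. The 130 bases from 130 before to the base before the start are shown for 4 members that were higher in KO libraries at repopulation, with motif letters in capitals (a match on the other strand reads TTCAAA or ATTGG). Mki67 lies on the minus strand at chr7:135716380-135716509, Top2a on the minus strand at chr11:99024190-99024319, Kif11 on the plus strand at chr19:37376252-37376381 and Plk1 on the plus strand at chr7:122159305-122159434.
Mki67: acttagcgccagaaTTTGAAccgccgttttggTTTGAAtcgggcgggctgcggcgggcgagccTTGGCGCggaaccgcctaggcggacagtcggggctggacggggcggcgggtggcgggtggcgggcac
Top2a: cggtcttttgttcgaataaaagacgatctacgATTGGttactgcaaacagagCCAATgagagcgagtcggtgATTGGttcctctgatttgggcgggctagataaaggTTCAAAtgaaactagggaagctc
Kif11: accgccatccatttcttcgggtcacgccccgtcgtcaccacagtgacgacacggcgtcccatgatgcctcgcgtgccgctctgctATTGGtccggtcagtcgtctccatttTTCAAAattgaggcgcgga
Plk1: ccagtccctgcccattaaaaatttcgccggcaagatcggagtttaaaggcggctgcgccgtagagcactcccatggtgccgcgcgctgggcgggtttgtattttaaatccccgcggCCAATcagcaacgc
Mki67 shows a pair of CHR cores and an E2F core in this window, and Top2a and Kif11 a CHR core downstream of CCAAT boxes. The window of Plk1 shows a CCAAT box, and its CHR core lies after the start, outside the letters shown. The same window upstream of Birc5 and both annotated starts of Cdkn1a held none of these letters.

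All 45 members passed the filter on low counts that kept 18413 genes, so none is left out below. Counts were nonetheless small: Ccne1, which encodes cyclin E1, had 438 counts over all 64 libraries, and Cdc6, which loads the helicase onto origins, had 616. Rare members are therefore also given as sums. Fold changes are log2 differences ± standard error (SE) from edgeR's quasi-likelihood test, and a member is called where its Benjamini-Hochberg adjusted p over all 18413 genes was under 0.05. Levels are CPM of the library's total count. The fitted differences are scaled by TMM (trimmed mean of M-values), so the 2 need not match exactly. Shares of all genes given below are for edgeR's adjusted p. None is given for counts at an unadjusted p or from DESeq2.

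At depletion 1 member was lower than in naive libraries, and it was the same gene in every genotype. Ccnd1 encodes cyclin D1, the first cyclin made when a growth signal arrives (GRCm38, chr7:144929931-144939925, minus strand, with LTO1 overlapping on the other strand). Naive ncRNA-poor libraries had 207, 228, 235, 258 and 177 CPM in WT, 167, 199, 229 and 208 in Het, and 179, 190, 169, 219 and 177 in KO. Depletion libraries had 63.5, 47.5, 17.8 and 40.0 CPM in WT, 48.0 and 21.8 in Het, and 38.1 and 57.9 in KO. Every depletion library was below every naive one. Ccnd1 fell by 2.32 ± 0.26 in WT (adjusted p = 2.06e-08), by 2.42 ± 0.36 in Het (1.67e-05) and by 1.86 ± 0.34 in KO (0.000478). The KO call rests on 2 depletion libraries: without replicate 1 the change was -1.59 with an adjusted p of 0.116. Marker sums of other cells moved with this change. Of the border macrophage markers, Stab1 held 584025 counts over all libraries, Mrc1 127595 and each other one 7364 to 38157. Their sum is thus mostly Stab1, here and in the comparisons below. Of the monocyte markers, Fn1 held 37166 counts and the next, Ccr2, 8017. Border macrophage markers summed to 621 to 1098 CPM at depletion against 2087 to 3638 in naive WT, 707 to 1332 against 1949 to 2620 in Het, and 344 to 576 against 864 to 1899 in KO, with no overlap. Monocyte markers were 18.3 to 59.5 against 102 to 170 CPM in WT and 21.3 to 30.2 against 79.1 to 174 in Het, and overlapped in KO (21.2 to 78.3 against 31.8 to 107). Endothelial markers were 96.1 to 325 against 352 to 553 CPM in WT and overlapped in Het and KO. Microglial markers were lower in all 3 genotypes without overlap, at 47398 to 47590 against 49086 to 55263 CPM in WT, 47088 to 51552 against 51940 to 55425 in Het and 36098 to 37058 against 42213 to 51558 in KO. The part of these sums in the Ccnd1 change was not tested.

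**Figure D1:**
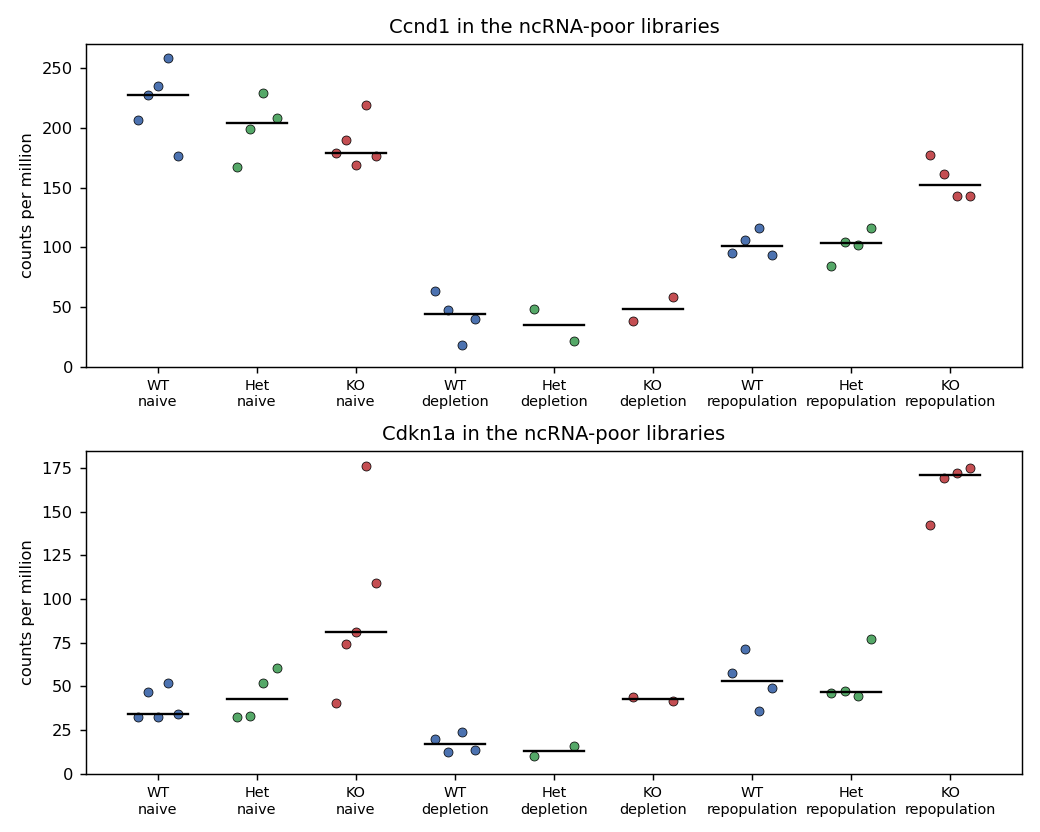
CPM of Ccnd1 (top) and Cdkn1a (bottom) in each ncRNA-poor library, by genotype and treatment, with 1 point per library and a line at the group median. Ccnd1 in depletion libraries (17.8 to 63.5 CPM) lies below all naive libraries, and Cdkn1a in the 4 KO repopulation libraries (142 to 175 CPM) lies above all 8 Het and WT repopulation libraries.

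Of all genes tested, 1.46% were lower in WT, 2.42% in Het and 0.668% in KO at depletion, against 1 of 45 members each. Higher genes made up 1.42%, 2.69% and 0.619%, against 0 of 45 members. At an unadjusted p under 0.05 there were 4 members in WT, 6 in Het and 22 in KO, and DESeq2 called 2, 2 and 6. No share of all genes is given for these counts, so they are not read as a result about the members. The median member change was 0.08 in WT, -0.28 in Het and -1.29 in KO, while the median of all genes was 0 in each.

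No mitotic member passed the test at depletion. Mki67, which encodes the proliferation marker Ki-67, had 9.56, 7.29, 12.4 and 5.43 CPM in WT depletion libraries, 2.80 and 3.80 in Het, and 2.15 and 2.18 in KO. The naive levels were 1.71 to 9.34 CPM in WT, 2.87 to 10.3 in Het and 4.02 to 16.9 in KO. The WT depletion libraries overlapped the naive range from above and the Het ones from below, and both KO depletion libraries were below all naive KO libraries. The change was 0.85 ± 0.43 in WT (adjusted p = 0.381) and -1.96 ± 0.63 in KO (0.127).

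Top2a, the topoisomerase that untangles sister chromosomes, had 13.8, 9.22, 25.9 and 8.49 CPM in WT at depletion, 4.07 and 6.44 in Het and 8.16 and 2.37 in KO. Cdk1, the kinase that starts mitosis, had 3.05, 2.57, 4.84 and 4.33 CPM in WT, 2.97 and 6.34 in Het, and 3.52 and 2.94 in KO. For Top2a all Het and KO libraries were below those of WT, and for Cdk1 the genotypes overlapped. Summed over the 21 mitotic members, WT depletion libraries ran from 67.0 to 127 CPM, Het from 40.5 to 51.5 and KO from 32.7 to 46.2. Naive ncRNA-poor libraries ran from 29.9 to 116 CPM in WT, 34.2 to 104 in Het and 73.2 to 140 in KO, so only the KO sums lay apart from their naive libraries. In KO 19 of the 21 mitotic members had a negative change, with a median of -1.74, and the difference between the KO response and the mean Het and WT response had a median of -1.75. No member passed the test of that difference in edgeR (0 of 45, 13 at an unadjusted p under 0.05, 0 in DESeq2, against 0.0163% of all genes higher and 0% lower). Foxm1, which activates mitotic genes, had the value -2.12 ± 0.60 with an adjusted p of 0.48.

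No replication member passed the test at depletion. These members include Mcm2 to Mcm7, the subunits of the replicative helicase, Pcna, the sliding clamp of the polymerases, and Rrm1, Rrm2, Tyms and Tk1, which make deoxynucleotides. Their sum was 271 to 297 CPM in WT, 290 to 292 in Het and 257 to 286 in KO depletion libraries, against 276 to 354, 275 to 295 and 285 to 448 in naive ones. Mcm5 had 9.66, 9.87, 14.4 and 12.8 CPM in WT at depletion, 15.9 and 11.5 in Het, and 10.1 and 9 in KO, within or below the naive range of 11.8 to 40.1. None of the 14 was called in any genotype by edgeR. Cdkn1a had 20, 12.6, 24 and 13.8 CPM in WT at depletion and 10.2 and 15.9 in Het, below all naive libraries of these genotypes (32.2 to 60.8), with changes of -1.09 ± 0.40 (adjusted p = 0.154) and -1.68 ± 0.55 (0.0582).

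**Figure D2:**
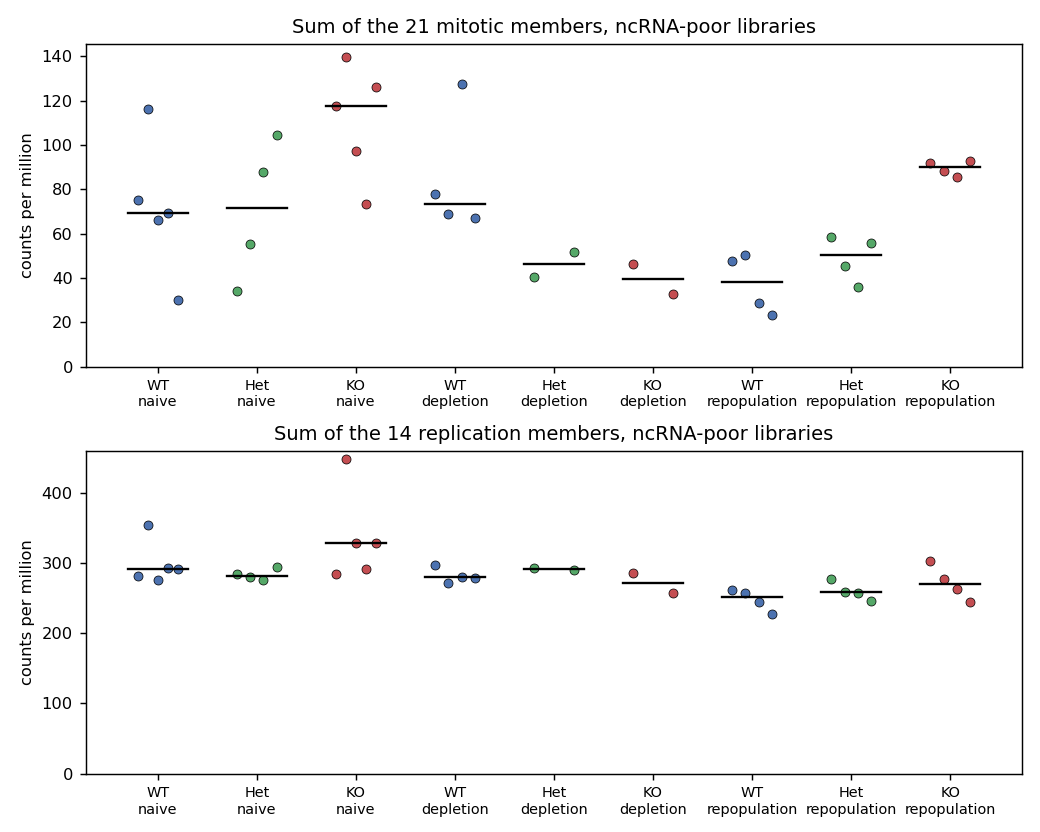
Summed CPM of the 21 mitotic members (top) and the 14 replication members (bottom) in each ncRNA-poor library, with 1 point per library and a line at the group median. The 4 KO repopulation libraries lie at 85.6 to 92.9 CPM for the mitotic members, above the 8 Het and WT ones (23.2 to 58.3), while the replication sums overlap.

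KO and control depletion libraries were also compared directly. No member was called by edgeR (0 of 45, 5 at an unadjusted p under 0.05, 2 in DESeq2, against 1.1% of all genes higher and 0.614% lower). Cdkn1a was nearest in that direction, with 44.1 and 41.7 CPM in KO against 10.2 to 24 in the 6 control libraries, which do not overlap. Its difference was 1.54 ± 0.46 with an adjusted p of 0.066, and 0.0246 in a fit of these 8 libraries alone. Microglial markers were at 36098 to 37058 CPM in KO and 47088 to 51552 in control depletion libraries, and the part of this in the member values was not tested.

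At repopulation Ccnd1 was the 1 member called against naive libraries in WT and in Het, and it was lower in both. It stood at 95.6, 106, 116 and 93.2 CPM in WT, 84.2, 104, 102 and 116 in Het, and 177, 162, 143 and 143 in KO. Every Het and WT library was above all depletion libraries and below all naive ones. Ccnd1 fell by 0.93 ± 0.25 in WT (adjusted p = 0.0168) and by 0.85 ± 0.26 in Het (0.0338) against naive. In WT the call was lost without replicate 1 (-0.88, 0.0647), replicate 2 (-0.93, 0.0509) or replicate 4 (-0.92, 0.0612) of the repopulation libraries. In Het it was lost without repopulation replicate 1 (-0.76, 0.118), 2 (-0.87, 0.0644) or 3 (-0.84, 0.0856), or naive replicate 2 (-0.85, 0.0609), 3 (-0.78, 0.111) or 4 (-0.84, 0.0738). Border macrophage markers were again lower without overlap, at 452 to 938 CPM against 2087 to 3638 in WT and 638 to 1008 against 1949 to 2620 in Het. So were monocyte markers (31.7 to 62.8 against 102 to 170 CPM in WT, 33.6 to 68.3 against 79.1 to 174 in Het) and endothelial markers (98.4 to 193 against 352 to 553, and 74.8 to 199 against 214 to 714). Microglial markers overlapped in WT and were lower in Het (46521 to 51202 against 51940 to 55425 CPM). Their part in the Ccnd1 change was not tested.

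Lower genes made up 1.09% of those tested in WT and 2.23% in Het at repopulation, against 1 of 45 members each, and higher genes 2.23% and 3.28%, against 0 of 45. In KO edgeR called 0 of 45 members (4 at an unadjusted p under 0.05, 0 in DESeq2), against 2.02% of genes higher and 1.04% lower. The median member change was -0.60 in WT, -0.26 in Het and -0.10 in KO, and the median of all genes was 0, 0.04 and 0. Among the mitotic members 20 of 21 had a negative change in WT (median -1.01), 15 in Het (median -0.56) and 11 in KO (median -0.04), none of them called. The responses share no control libraries between genotypes, and the difference between the KO response and the mean Het and WT response was called for 0 of 45 members by edgeR (2 at an unadjusted p under 0.05, 0 in DESeq2, against 0.038% of genes higher and 0.0543% lower).

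KO libraries at repopulation had higher levels of mitotic members and of Cdkn1a than Het and WT libraries at the same stage. edgeR called 6 of 45 members higher and 0 lower, against 4.01% and 3.45% of all genes, and DESeq2 called 11 higher and 2 lower. The 6 were Cdkn1a, Mki67, Top2a, Kif11, Plk1 and Birc5. The median member difference was 0.63 against 0 for all genes. By position, all 4 KO libraries were above all 8 control libraries for 12 of the 45 members, below them for 0 and overlapping for 33. The position was not counted over all genes, so no share stands beside these numbers. The count of calls fell to 2 without KO replicate 1 and to 3 without KO replicate 2, KO replicate 4 or WT replicate 4. In a fit of the 12 repopulation libraries alone it was 15 higher and 1 lower. The shares of all genes above belong to the main fit of all 64 libraries, and none is given here for the other fits.

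Cdkn1a had the smallest p-value of the members (chr17:29090976-29100727, plus strand, with AC167363.2 overlapping on the other strand). KO libraries had 142, 170, 172 and 175 CPM, Het 46.1, 47.4, 44.6 and 77.3, and WT 57.6, 71.3, 35.9 and 49.0. No control library reached 78 CPM, and the KO libraries all exceeded 140. The difference was 1.64 ± 0.33 (adjusted p = 0.000577), and it was past the threshold in each alternative that was run. It was also called against Het alone, where it was the only member.

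Mki67 and Top2a gave the same order of groups. Mki67 (chr7:135689784-135716361, minus strand) had 5.25, 5.59, 6.45 and 8.62 CPM in KO, 1.81, 3.01, 3.92 and 2.09 in Het, and 3.17, 2.97, 1.32 and 0.773 in WT. The groups did not overlap, and the difference was 1.47 ± 0.40 (adjusted p = 0.0113), with 1.3 and 0.0604 without KO replicate 4. Top2a (chr11:98992943-99024189, minus strand) had 20.1, 13.3, 11 and 19.4 CPM in KO, 8.36, 6.01, 4.35 and 4.93 in Het, and 6.53, 11.5, 4.38 and 3.18 in WT. 1 of the WT libraries, at 11.5 CPM, lay inside the KO range. The Top2a difference was 1.40 ± 0.40 (0.0197), and it was not called without KO replicate 1 (1.23, 0.1), KO replicate 4 (1.29, 0.0702) or WT replicate 4 (1.26, 0.0553).

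Kif11, the motor that pushes spindle poles apart, had 3.65, 4.24, 3.19 and 2.90 CPM in KO, 2.05, 1.54, 1.28 and 1.27 in Het, and 1.23, 2.26, 0.827 and 0.859 in WT. All KO libraries were above all controls, with a difference of 1.33 ± 0.37 (adjusted p = 0.0147), lost without KO replicate 1 (1.27, 0.0524) or 2 (1.22, 0.0643). Plk1, a kinase of mitotic entry and exit, had 4.18, 4.86, 2.79 and 1.98 CPM in KO, 2.13, 1.22, 0.642 and 0.598 in Het, and 1.16, 2.62, 0.579 and 0.602 in WT. The ranges overlapped through 1 KO library, and the difference was 1.56 ± 0.45 (0.0215), lost without KO replicate 1 (1.42, 0.0901), KO replicate 2 (1.35, 0.109), Het replicate 3 (1.45, 0.05) or WT replicate 4 (1.42, 0.057). Birc5 encodes survivin, a subunit of the chromosomal passenger complex. It had 2.66, 1.91, 1.99 and 1.98 CPM in KO, 0.788, 0.894, 0.499 and 0.374 in Het, and 0.840, 0.778, 0 and 0 in WT. Its groups did not overlap, but with counts this low the call (2.06 ± 0.66, 0.0422) was lost on leaving out any of 9 of the 12 repopulation libraries, among them KO replicate 1 (1.91, 0.125), and in DESeq2's size factors (2.01, 0.0502).

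**Figure D3:**
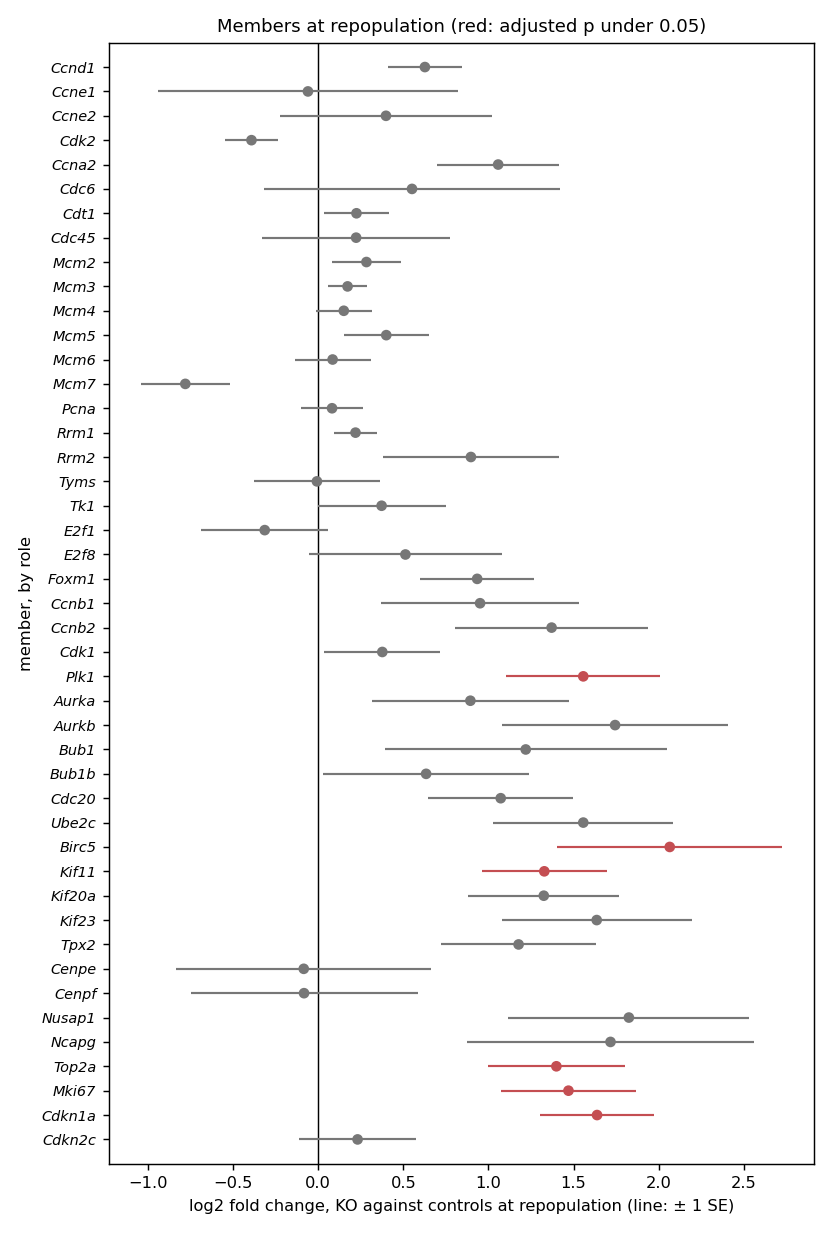
Log2 fold change of each of the 45 members in KO against Het and WT libraries at repopulation, ordered by role from cyclins (top) to inhibitors (bottom), with lines of 1 SE on each side and called members in red. Cdkn1a and 19 of the 21 mitotic members sit to the right of 0 and most replication members nearer to it, with medians of 1.33 for the 21 mitotic and 0.22 for the 14 replication members.

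By role, 2 of 11 members of mitotic entry and exit and 3 of 10 of the spindle, kinetochore and chromosomes were called higher, and 19 of these 21 had a positive difference. Cdk1 was not among those called, with 10.7, 7.50, 8.92 and 7.01 CPM in KO, 7.17, 7.88, 6.56 and 4.79 in Het and 11.2, 6.44, 4.38 and 4.98 in WT, ranges that overlap. Ube2c, which hands ubiquitin to the anaphase-promoting complex, Kif20a and Kif23, motors of cell separation, Aurkb, a kinase of the passenger complex, Tpx2, a spindle assembly factor, Nusap1, a microtubule-bundling protein, and Ccna2, cyclin A2, also had all 4 KO libraries above all controls. Their adjusted p-values were not under 0.05: Ube2c had 1.56 ± 0.53 (0.0588), Kif23 1.64 ± 0.56 (0.0606) and Ccna2 1.06 ± 0.36 (0.0605). The share of all genes with every KO library above every control was not counted, so that position is not read as a result. The summed mitotic members were at 85.6 to 92.9 CPM in KO, 36.1 to 58.3 in Het and 23.2 to 50.4 in WT.

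Of the 14 replication members none was called by edgeR at repopulation, and 12 had a positive difference, with a median of 0.22. Mcm5 had 17.0, 15.8, 12.1 and 9.15 CPM in KO, 14.1, 12.2, 8.98 and 9.20 in Het, and 12.8, 11.5, 7.85 and 6.87 in WT. The genotypes overlapped, as did the summed replication members (244 to 302 CPM in KO and 228 to 277 in controls). Mcm7 was the nearest to a call, at -0.78 ± 0.26 (adjusted p = 0.0535), the opposite sign. Ccnd1 did not overlap between KO (143 to 177 CPM) and controls (84.2 to 116), with a difference of 0.63 ± 0.22 and an adjusted p of 0.0641, or 0.00094 in a fit of the 12 repopulation libraries alone.

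Which controls were used made a difference to the count. Against WT alone edgeR called 3 members higher and 0 lower (against 2.26% and 2.53% of all genes), against Het alone 1 higher and 0 lower (2.15% and 2.48%), and Het against WT 0 (1 at an unadjusted p under 0.05, 0 in DESeq2, against 0% of all genes higher and 0% lower). The median mitotic difference was 1.44 against WT and 1.21 against Het, and 0.25 for Het against WT. KO libraries were 3 male and 1 female, and the 8 controls 3 male and 5 female. Every KO library had a mitotic sum above every control library, so dividing them by sex could not change that order. The part of sex in these sums was not tested. With sex as a term in the fit 12 members were called, all higher, and the share of all genes called in that fit is not given here.

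Marker sums of other cells in KO at repopulation overlapped those of controls, except that the lymphocyte sum was lower. Some lists rest largely on 1 gene. Over all libraries Cd79b had 11641 counts and the next lymphocyte marker, Gzma, 1051. Fn1 had 37166 and the next monocyte marker, Ccr2, 8017. Summed CPM of 6 monocyte markers was 22.6 to 33.1 in KO and 31.7 to 68.3 in controls, of 9 neutrophil and precursor markers 1.83 to 19.9 and 0.946 to 53.1, and of 8 lymphocyte markers 15.6 to 20.5 and 22.1 to 34.4. For 6 markers of oligodendrocyte precursors the sums were 7 to 29.5 and 7.73 to 21.7, and for 6 of neural progenitors 0.637 to 4.55 and 1.07 to 7.69. Among the ranges that overlap, the neutrophil and precursor median was higher in KO (17.2 and 7.80) and the neural progenitor median lower (2.36 and 4.55). Erythroid markers summed to 3629 to 13546 CPM in KO and 2766 to 13158 in controls, ranges that overlap. The 8 border macrophage markers summed to 388 to 669 CPM in KO and 452 to 1008 in controls, and the 10 microglial markers to 40579 to 43439 and 46521 to 53350. The lower microglial sum in KO moved with the member values. The part of this or any other marker sum in the member values was not tested.

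Other genes of the same pathways were described from lists beyond the 45. Their counts are to be read beside 4.01% of all genes higher and 3.45% lower. Of 45 further mitosis genes 4 were higher in KO at repopulation and 0 lower (median 0.63, 38 positive): Cdca3, a cell-division-associated gene (2.55 ± 0.62, adjusted p = 0.00433), Hmmr, a spindle protein (1.91 ± 0.54, 0.0182), Aspm, a spindle-pole protein (2.22 ± 0.70, 0.0373), and Ccnf. Of 30 further replication genes 1 was higher, Cdc7, the kinase that fires origins (1.40 ± 0.40, 0.0185), with a median of 0.23. Of 22 genes of G1 and its control, 1 was lower: Cdkn1c, the inhibitor p57 (-1.46 ± 0.36, 0.00532).

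Of 12 genes known as p53 targets, 3 were higher and 1 lower in KO at repopulation, against 4.01% and 3.45% of all genes. Sesn2, a stress-induced sestrin also known as an ATF4 target, rose by 2.01 ± 0.23 (adjusted p = 2.97e-09), Ccng1, cyclin G1, by 0.84 ± 0.12 (2.39e-06) and Bax, which opens the outer mitochondrial membrane, by 0.56 ± 0.16 (0.0156). Plk2, a polo-like kinase, fell by 1.3 ± 0.40 (0.0334). The list's median was 0.30 and 10 of the 12 had a positive difference.

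In naive adults KO libraries also differed from Het, with 7 of 45 members higher and 1 lower, against 9.22% and 7.65% of all genes. The comparison averages the ncRNA-poor, middle and deep sets. The median member difference was 0.49 against 0.02 for all genes, and 41 of 45 were positive. All 21 mitotic members had a positive difference (median 0.79) and 4 were called. Called higher were Cdkn1a (1.32 ± 0.23, adjusted p = 2.49e-05), Ccna2 (1.07 ± 0.24, 0.0011), Cdc20, an activator of the anaphase-promoting complex (1.29 ± 0.30, 0.00123), Ccnb2, cyclin B2 (1.41 ± 0.39, 0.00796), Mki67 (0.89 ± 0.25, 0.00817), Rrm2 (1.25 ± 0.35, 0.00975) and Plk1 (0.94 ± 0.31, 0.0263). Cdkn1a, Mki67 and Plk1 were called both here and at repopulation, 3 of 7 and 3 of 6, and these comparisons share no library. The call of Plk1 was lost without Het replicate 1 (0.88, 0.0519), Het replicate 4 (0.87, 0.0563), Het replicate 13 (0.90, 0.0534), KO replicate 8 (0.80, 0.0725) or KO replicate 13 (0.89, 0.051). When naive replicates 1 to 5 of each genotype were taken as 1 set in place of the 3 sets, 1 of these 8 members was called, Cdkn1a (1.39, 0.0166). This choice joined Het replicate 5, a middle library, to ncRNA-poor ones and left the later replicates out of the comparison. Mki67 then turned to -0.18 (0.852) and Pcna, the member called lower, to 0.050 (0.92). The other 5 kept their sign with adjusted p-values from 0.0762 (Ccna2) to 0.325 (Ccnb2).

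Cdkn1a had a positive difference in each set and passed the test in the middle one. It had 40.5, 74.4, 81.0, 176 and 109 CPM in ncRNA-poor KO libraries and 32.5, 33.3, 52.1 and 60.8 in Het. In the middle set KO ran from 18.9 to 47.2 CPM (n = 6, median 24) and Het from 6.88 to 21 (n = 7, median 11.9), and in the deep set KO had 22.7 and 25.5 and Het 9.29 and 8.71. The deep libraries did not overlap, and the others overlapped through 1 KO library in the ncRNA-poor set and through 1 Het library in the middle one. The differences by set were 1.13 ± 0.39 (adjusted p = 0.118), 1.31 ± 0.33 (0.00482) and 1.82 ± 0.60 (0.179), in the order ncRNA-poor, middle and deep. Against naive WT (32.2, 47.0, 32.7, 51.7 and 34.1 CPM) the ncRNA-poor KO libraries gave 1.33 ± 0.37 (0.039), the 1 member called (1.15% of genes higher and 0.787% lower). That call was lost without KO replicate 4, the library at 176 CPM (0.99, 0.28), without KO replicate 3 or 5, without any 1 of the 5 WT libraries, and in the libraries compared alone (1.31, 0.0817).

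By set, edgeR called 0 members in the ncRNA-poor libraries (7 at an unadjusted p under 0.05, 1 in DESeq2), 4 higher and 1 lower in the middle set and 0 in the deep set (7 at an unadjusted p under 0.05, 3 in DESeq2). All genes were called higher in 1.48%, 7.68% and 0.348%, and lower in 1.25%, 6.07% and 0.223%. The median of the mitotic members was 0.68, 0.47 and 1.40. Mki67 had 7.75, 16.9, 9.36, 4.02 and 7.01 CPM in ncRNA-poor KO and 3.22, 2.87, 10.3 and 9.20 in Het, ranges that overlap. In the middle set it ran from 15.3 to 65.4 in KO (median 37.5) and 10.8 to 37.7 in Het (median 22.1), and in the deep set it was 31.3 and 19.0 in KO and 19.1 and 6 in Het. Top2a and Cdk1 overlapped between KO and Het in the ncRNA-poor and middle sets: Top2a ran from 9.31 to 24.2 CPM in KO and 3.97 to 16.2 in Het in the first, and Cdk1 from 5.29 to 9.52 and 2.24 to 8.47. Mcm5 ran from 14 to 40.1 CPM in KO and 13.5 to 16.6 in Het there. Markers of cell identity also differed. Microglial markers were lower in KO without overlap in the ncRNA-poor set (42213 to 51558 CPM, Het 51940 to 55425) and in the deep set (18773 to 21918, Het 29297 to 32437), and overlapped in the middle set (20576 to 23986, Het 23617 to 27855). Border macrophage markers were lower without overlap in the same sets (864 to 1899, Het 1949 to 2620, and 678 to 771, Het 1012 to 1305) and overlapped in the middle one (411 to 981, Het 658 to 1226). The part of either in the member values was not tested.

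**Figure D4:**
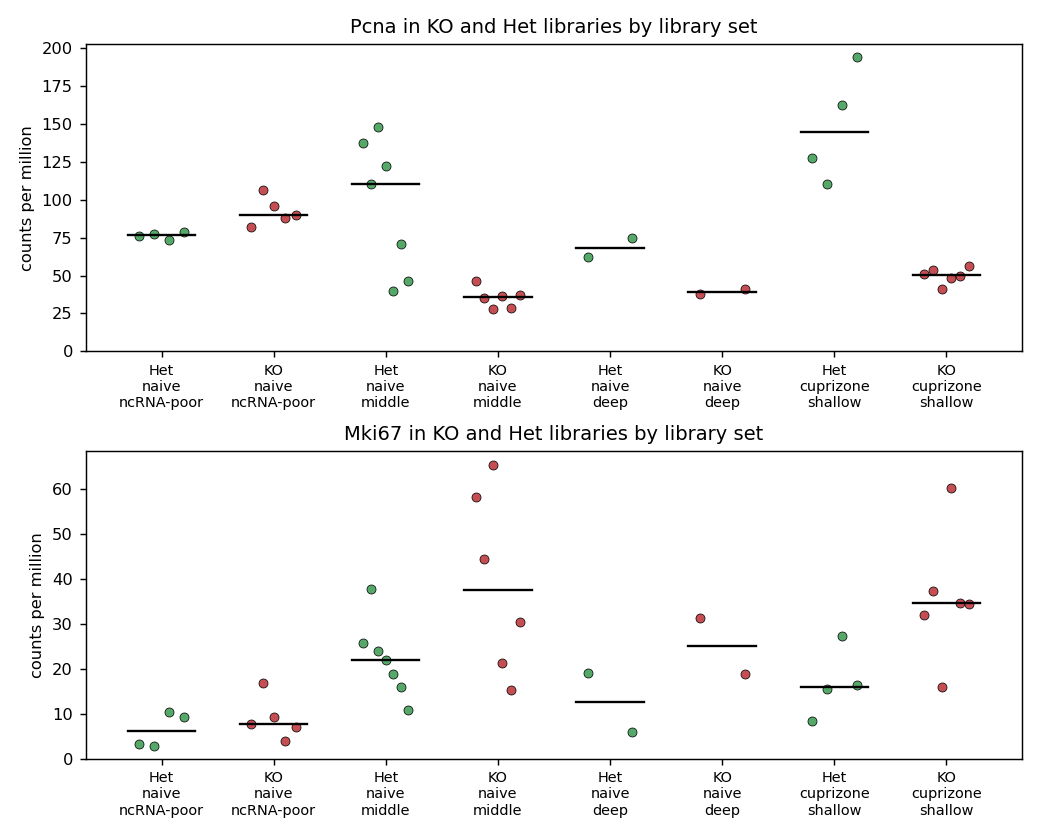
CPM of Pcna (top) and Mki67 (bottom) in naive and cuprizone Het and KO libraries, by set of libraries, with 1 point per library and a line at the median. In ncRNA-poor libraries Pcna in KO lies above Het (82.3 to 107 against 73.3 to 78.6 CPM), and in the deep and cuprizone libraries it lies below.

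Pcna behaved differently by set (chr2:132249162-132253314, minus strand). In ncRNA-poor naive libraries it had 82.3, 107, 96.0, 87.8 and 89.8 CPM in KO and 75.8, 77.7, 73.3 and 78.6 in Het, and KO was above Het without overlap. In the middle set KO had 28.1 to 46.6 CPM (n = 6, median 35.9), Het replicates 5 to 8 had 138, 110, 148 and 122, and Het replicates 9 to 11 had 39.5, 71.1 and 46.5. In the deep set KO had 38.1 and 40.8 CPM and Het 62.2 and 74.5. The difference over all sets was -0.58 ± 0.12 (adjusted p = 0.000327) and by set 0.29 ± 0.20 (ncRNA-poor, 0.584), -1.24 ± 0.17 (middle, 1.26e-06) and -0.39 ± 0.30 (deep, 0.92). The difference between the middle and deep sets and the ncRNA-poor set was -1.32 ± 0.25 (0.0047), or 0.0898 in a fit of those libraries alone. Pcna was the 1 member for which this difference was called, against 0.0978% of genes higher and 0.228% lower. Tmem230, a neighbour on the chromosome, was lower in the middle set (-0.83 ± 0.23, 0.0108). Cds2, another neighbour, was not called in any set (0.21 ± 0.16 in the middle set, 0.437). A Pcna pseudogene, Pcna-ps2, was not called in any set. The annotation names 2 pseudogenes after Pcna, and whether reads were shared with them was not measured, so its count is uncertain.

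In cuprizone libraries the Pcna difference was -1.43 ± 0.20 (adjusted p = 5.53e-07). KO had 51.0, 53.9, 41.3, 48.1, 49.4 and 56.5 CPM and Het 127, 111, 162 and 194, with no overlap. Of the neighbours of Pcna, Tmem230 was lower there too (-1.30 ± 0.27, 0.000457), while Cds2 was higher (0.95 ± 0.19, 0.000312). Another 3 members were higher, so that edgeR called 3 of 45 higher and 1 lower, against 8.16% and 5.83% of all genes. Tpx2 had a range of 5.39 to 13 CPM in KO (median 7.15) and 0.327, 1.48, 1.37 and 2.49 in Het, without overlap (2.68 ± 0.60, 0.001). Rrm2 ran from 0.603 to 2.92 CPM in KO, and in Het it was 0, 0, 0.820 and 0.277 (2.59 ± 0.79, 0.0189). Nusap1 ran from 0 to 16.3 CPM in KO, and in Het it was 0, 0.371, 1.37 and 0.277 (3.40 ± 1.03, 0.0189).

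These libraries were shallow, and 1 CPM was 3 to 5 reads, so the calls depend on few counts. Rrm2 was not called without Het replicate 1 (2.21, 0.075) or 2 (2.23, 0.0791), and Nusap1 not without Het replicate 1 (3.01, 0.0692), 2 (3.26, 0.062) or 4 (3.20, 0.0585), or KO replicate 3 (2.68, 0.0782). In the cuprizone libraries alone neither was called (0.16 and 0.102). Without Het replicate 1 or 2 the count of members called was 2, and without Het replicate 3 it was 7. The median member difference was 0.48 against 0.02 for all genes, 20 of 21 mitotic members were positive, and the mitotic sum was 90.8 to 173 CPM in KO and 35.6 to 97.9 in Het. Mki67 had 16.0 to 60.3 CPM in KO (median 34.6) and 8.49, 15.6, 27.3 and 16.4 in Het (1.21 ± 0.43, 0.0505), and Top2a 8.73 to 32.1 (median 11.6) against 3.59, 8.53, 9.29 and 5.82 (1.27 ± 0.49, 0.0769). Both overlapped through few libraries. Cdkn1a did not separate the genotypes here, with 20.6 to 114 CPM in KO and 22.3 to 77.9 in Het, nor did Ccnd1 (66.6 to 167 and 55.4 to 162), Mcm5 (5.25 to 12.7 and 6.68 to 7.84) or Cdk1 (1.5 to 4.82 and 1.31 to 5.57). Markers of oligodendrocyte precursors were lower in KO without overlap (2.94 to 9.91 CPM, Het 10.4 to 17.1). Border macrophage markers were at 331 to 746 CPM in KO and 589 to 1346 in Het, monocyte markers at 6.51 to 67.8 and 14.2 to 80.4 and microglial markers at 20093 to 28527 and 21819 to 24346, ranges that overlap. Their part in the member values was not tested.

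**Figure D5:**
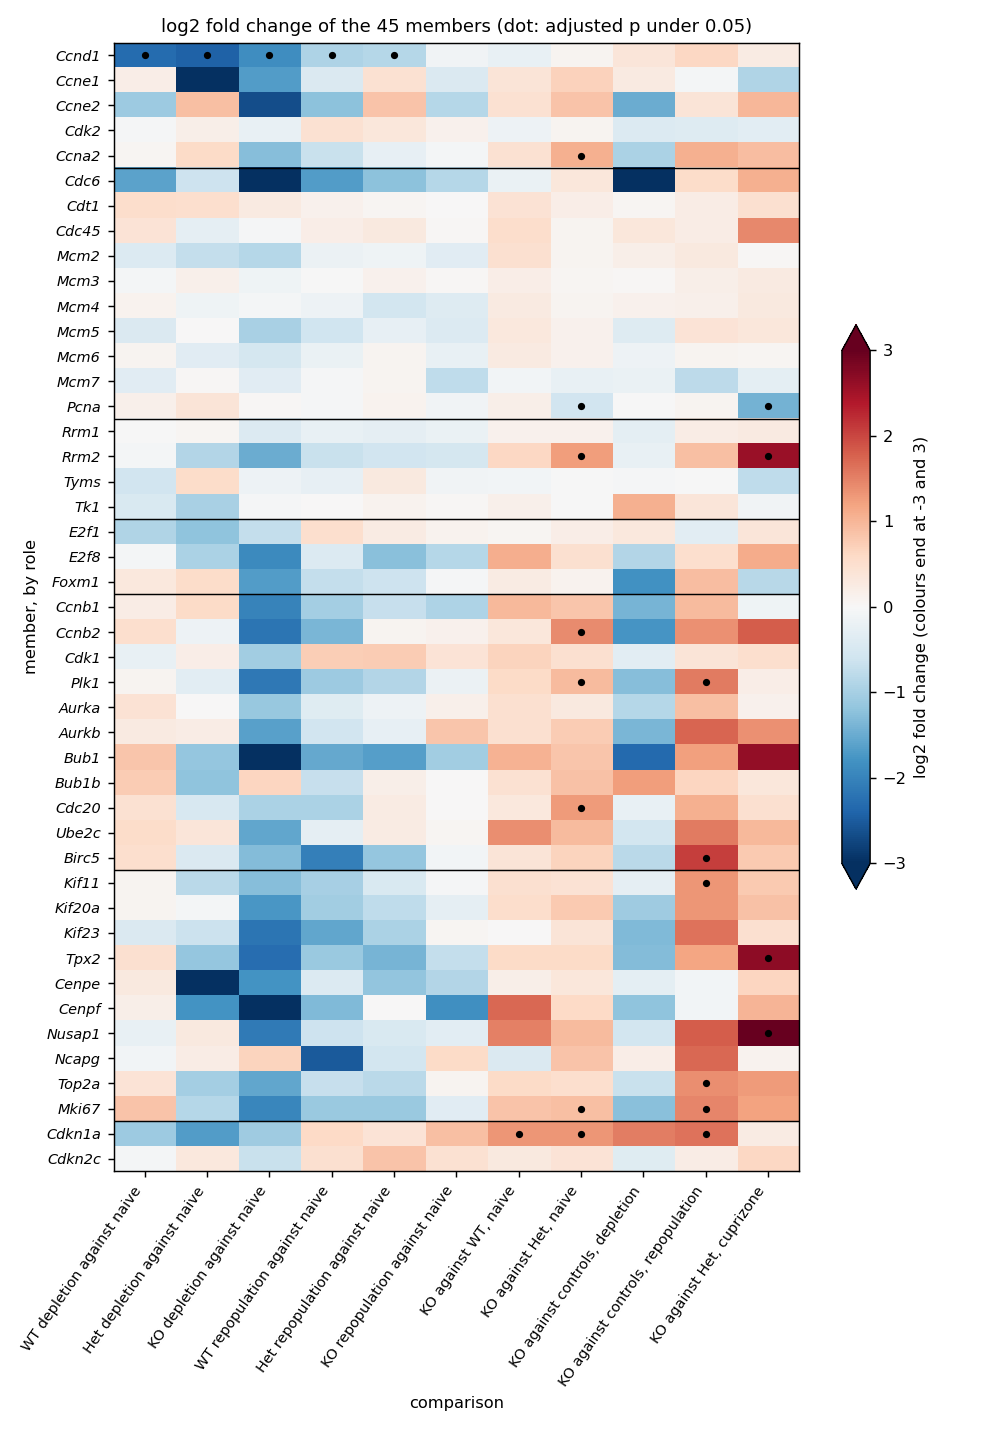
Log2 fold change of the 45 members (rows, by role, with lines between roles) in 11 comparisons (columns), red for higher and blue for lower in the group named first, with a dot where the adjusted p was under 0.05. Ccnd1 is blue in all 3 depletion columns, and the mitotic rows are mostly red where KO is compared with controls at repopulation and blue where KO depletion is compared with naive.

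Pathway genes beyond the 45 were called in naive KO against Het at shares to be read beside 9.22% higher and 7.65% lower over all genes. Of 45 further mitosis genes 3 were higher (Ndc80, Kif2c and Hmmr) and 1 lower, Hmgb2, a chromatin protein of dividing cells (-1.04 ± 0.10, adjusted p = 1.15e-10), which was also lower under cuprizone (-2.23 ± 0.17, 7.77e-14). Of 12 p53 targets 3 were higher, Sesn2 (1.21 ± 0.16, 4.77e-08), Ccng1 (0.54 ± 0.08, 1.89e-06) and Bax (0.42 ± 0.11, 0.00338), and 2 lower, Btg2 (-1.42 ± 0.28, 0.000156) and Plk2 (-1.17 ± 0.24, 0.000311). Of 30 replication genes 1 was higher and 1 lower, and of 22 genes of G1 1 was lower, Cdkn1c (-0.78 ± 0.22, 0.00975). Under cuprizone the counts were 3 and 0 of 30 replication, 6 and 2 of 45 mitosis, 1 and 2 of 22 G1 and 2 and 3 of 12 p53 target genes, higher and lower in that order, against 8.16% and 5.83% of all genes.

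The 3 old Het libraries, all deep, were not tested here. They had Mki67 at 38.3, 22.0 and 25.7 CPM, Top2a at 17.6, 18.3 and 16.2 and Ccnd1 at 59.6, 82.9 and 69.3, where the 2 deep adult Het libraries had Mki67 at 19.1 and 6, Top2a at 12.9 and 5.37 and Ccnd1 at 160 and 138. Old libraries were above both adult ones for Mki67 and Top2a and below them for Ccnd1. Oligodendrocyte precursor markers summed to 42.8 to 133 CPM in old and 15.3 to 17.4 in these adult libraries. Monocyte markers were at 154 to 333 against 52.4 to 80.3 CPM. Single genes can make up much of these sums. Among precursor markers the highest count in any library was 2837 for Cspg4, and 382 for the next, Vcan. Among monocyte markers it was 6675 for Fn1, and 834 for the next, Chil3. Microglial markers were lower in old libraries (12847 to 18722 against 29297 to 32437 CPM). Border macrophage markers and neutrophil and precursor markers were lower too, and lymphocyte and neural progenitor markers overlapped. The part of these sums in the member values was not tested.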

How the data were processed

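RNA of sorted microglia was made into libraries with a strand-marking total RNA kit, per the labels' protocols, and the authors deposited 1 raw count per gene and library. The submitters' processing notes name the build GRCm38, the aligner STAR 2.6.1d, the quantifier Salmon 1.5.2, and, for earlier steps, bcl2fastq 2.20 and Trim Galore 0.6.7. Which tool made the counts, and with which strand setting, is not given in the sources used here, and 19 of the 45 genes overlap a gene on the opposite strand. Totals were 2.70 to 24 M counts (median 11.9 M). Samples were grouped by the labels. Libraries were divided by the share of Gm26917 and Yam1 (1%) and by total counts (15 M and 5.5 M). The main test was edgeR 4.0.16 in R 4.3.3 (glmQLFit and glmQLFTest, TMM scaling, filterByExpr with a minimum count of 10 and a minimum total of 15), two-sided, on all 64 libraries with 1 mean per group and set. Controls at depletion and repopulation were the mean of the Het and WT means. Alternatives were DESeq2's size factors, DESeq2 1.42.0, no filter, only the libraries compared, no library set, naive replicates 1 to 5 as 1 set, the replicate number as a block and, in groups of 2 to 5 libraries within a set, each library left out. Leaving out each library of the larger groups, sex as a term, single sets, single control genotypes and a subset of the cuprizone libraries were added after the data were seen. Mki67, Top2a, Cdk1, Mcm5, Ccnd1 and Cdkn1a are given throughout, with up to 6 called members of the smallest p per comparison, any other member with its values, and up to 3 called genes per further list. The members and all lists were chosen with earlier results of these data known. The fit was tested on simulated data. Of the further pathway genes, Knl1 was not matched.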

Additional observations from a re-analysis of the deposited data

Results flagged for a closer look

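Among 99 groups of 4 to 10 libraries examined for 6 members and 3 sums, 9 held a library far from the others by Dixon's criterion, where chance gives about 1 in 20 groups. Top2a was 32.1 CPM in KO cuprizone replicate 4, with the other 5 libraries at 8.73 to 17.2. Cdk1 was 5.57 CPM in Het cuprizone replicate 2, with the others at 1.31 to 1.94. Mcm5 was 40.1 CPM in naive KO replicate 2, with the others of its set at 14 to 16, and the summed replication members were 447.8 CPM in the same library, against 284.8 to 328.4. The same sum was 353.9 CPM in naive WT replicate 2, against 275.8 to 292.6 in the other 4. Ccnd1 was 179.4 CPM in naive KO replicate 6, a middle library, against 93.0 to 122.8. Cdkn1a was 77.3 CPM in Het repopulation replicate 4 (others 44.6 to 47.4), 47.2 CPM in naive KO replicate 11 (others 18.9 to 26.3) and 142.2 CPM in KO repopulation replicate 1, the lowest of its group (others 169.5 to 174.9).

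The KO against Het difference of Pcna in naive libraries differed between sets: the middle and deep libraries minus the ncRNA-poor ones gave -1.32 (SE 0.25, adjusted p = 0.0047 by edgeR's quasi-likelihood test).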

How the results depend on the processing

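Low counts limit most members, and 2 depletion libraries per group in KO and Het limit that stage. Of 551 alternative values for the 24 called member results, 549 kept their direction, 476 stayed past the threshold and 73 did not. The 2 that turned came from taking naive replicates 1 to 5 as 1 set: Pcna 0.050 and Mki67 -0.18 in naive KO against Het, where 1 member was called in place of 8. That set joins Het replicate 5, a middle library, to ncRNA-poor ones. In the libraries compared alone, the members called were 2 for WT depletion, 2 for Het depletion, 3 for Het repopulation, 1 for KO repopulation, 0 for naive KO against WT, 1 for KO against controls at depletion, 16 at repopulation (6 in the full fit), 2 for cuprizone and 1 for the KO difference in the repopulation response. With DESeq2 they were 2 for WT depletion, 2 for Het depletion, 6 for KO depletion, 2 for WT repopulation, 2 for Het repopulation, 2 for KO against controls at depletion and 13 at repopulation. Without library sets they were 5 for Het depletion, 2 for KO depletion, 0 for WT, 8 for Het and 8 for KO repopulation, 3 for naive KO against WT and 3 for KO against controls at repopulation. With no filter on low counts they were 2 for Het depletion and 1 and 3 for KO against controls at depletion and repopulation. DESeq2's size factors gave 1 for KO against controls at depletion. Naive replicates 1 to 5 gave 2 for Het repopulation and 0 for naive KO against WT. Sex as a term gave 12 for KO against controls at repopulation, and Het replicates 1 and 2 against KO replicates 1 to 4 gave 9 for cuprizone. The causes of these shifts were not tested, and the share of all genes called under each alternative is not given here. Leaving out each of the 61 compared libraries in turn gave 1 to 1 members for WT and Het depletion, 0 to 1 for KO depletion, WT repopulation, Het repopulation and naive KO against WT, 7 to 11 for naive KO against Het, 2 to 7 for KO against controls at repopulation, 2 to 7 for cuprizone, and 0 to 0 for KO repopulation, KO against controls at depletion and both differences in response. With the replicate number as a block, 1 member was called for KO repopulation and 2 for KO against controls at depletion, and it moved no other count by over 1.5 times. The numbers do not pair libraries: of 115 same-numbered pairs 19 had a correlation of deviations over 0.1 (range -0.214 to 0.218). For the log2 ratio of median summed CPM, KO over controls at repopulation was 0.55 for all members, 0.96 for mitotic members, 0.067 for replication members and 0.24 without Ccnd1 and Cdkn1a. WT repopulation over naive was -0.42, -0.87, -0.22 and -0.24, and WT depletion over naive -0.48, 0.083, -0.062 and 0.011, in the same order.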
